A study of Danio rerio with 4 samples.

Results

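The antioxidant enzymes examined here are 10 zebrafish genes that remove superoxide and peroxides: the glutathione peroxidase genes gpx1a, gpx1b, gpx4a and gpx4b, the superoxide dismutase genes sod1 and sod2, the catalase gene cat, and the peroxiredoxin genes prdx1, prdx2 and prdx5. Members were the probe sets of the array that the platform annotation pairs with one of these symbols. All 10 genes, of 8793 that the annotation names by 1 symbol per probe set, had a probe set: 9 of them 1 and prdx1 3, which gave 12 probe sets of the 15502 on the array that are not controls. The brains came from adult Danio rerio kept at 28°C (labelled normal) or held at 10°C for 10 days (labelled cold-stressed, called cold here), with both sexes in each group and no strain given in the labels. RNA of several pooled brains was hybridized to each 1-colour Affymetrix Zebrafish Genome Array, and the 4 arrays are called normal 1, normal 2, cold 1 and cold 2 after their labels. No RNA of a single fish was measured, and the whole brain mixes neurons, glia, vessels and blood.

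Superoxide, a by-product of respiration and of oxidases, is turned into hydrogen peroxide by superoxide dismutases. Catalase splits hydrogen peroxide in peroxisomes, glutathione peroxidases reduce peroxides with glutathione, and most peroxiredoxins do so with a reactive cysteine that is recycled through thioredoxin. The brain is known for a high use of oxygen and for membranes rich in polyunsaturated lipids, which peroxides attack.

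The signal is a linear intensity per probe set, compared on the log2 scale, and the number of arrays limits its precision. Each median signal over all probe sets lay between 95.9 and 102. Of the 15502 probe sets, 9301 averaged a log2 signal of 6.22 or more (the 40th percentile) and were tested, and all 12 antioxidant probe sets were among them. Arrays with the same label were not the most alike. Normal 1 and normal 2 differed at least 2-fold at 1414 of the 9301 probe sets and cold 1 and cold 2 at 1105. Among pairs with different labels, cold 1 and normal 2 did so at 260 and normal 1 and cold 2 at 675. Normal 2 and cold 2 did so at 579, and normal 1 and cold 1 at 1295. The gene cirbpb, an RNA-binding protein gene known for its induction by cold and chosen with its values known, had a signal of 6741 on normal 1 and 3258 on cold 1, but 2853 on normal 2 and 7027 on cold 2, so that the number 1 arrays went against their labels at this gene. Cold over normal of its paralogue cirbpa was 0.499-fold in number 1 and 1.59-fold in number 2. Whether the labels of normal 1 and cold 1 were exchanged was not tested. The labels were left unchanged and directions are those they give. For gpx1b and prdx1, values on the arrays of number 2 and without normal 1 are given. For the other enzymes the range over fits without 1 array is given. For genes of other lists no such fit is given, so their directions keep the doubt on those labels. Per the study's text, the RNA came from fish of several acclimation experiments, but which experiment an array belongs to is not given in the labels, and further RNA sets were not analysed here. The p-values rest on the spread among these 4 pools alone. The filter by its definition keeps 9301 of the 15502 probe sets, counted singly. Genes of cell types were each counted once, at their brightest probe set. Those of neurons, oligodendrocytes and radial glia that are on the array (8, 5 and 7) all passed the filter. So did 9 of 10 red blood cell genes and 9 of 10 skeletal muscle genes. Passing the filter therefore does not tell which tissue was labelled.

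With the labels as given, no antioxidant enzyme gene passed the test between normal and cold brains. At an adjusted p under 0.05 from limma, 0 of the 12 probe sets stood higher in cold and 0 stood lower, beside 0.0% of all 9301 probe sets in each direction. At an unadjusted p under 0.05, 0 of the 12 passed, against 46 of 9301 (0.495%) in the same limma fit. That share lies far below the 0.05 that values without a group difference would give. The absence of calls therefore says little about the enzymes. The adjusted p was 1.0 for each of the 12, from the same limma fit with Benjamini-Hochberg adjustment over the 9301. Their median log2 fold change, cold minus normal, was -0.02, beside 0.04 over all probe sets tested. An exact permutation test of 2 arrays against 2 cannot go below a two-sided p of 0.333, so none is given per gene.

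**Figure D1:**
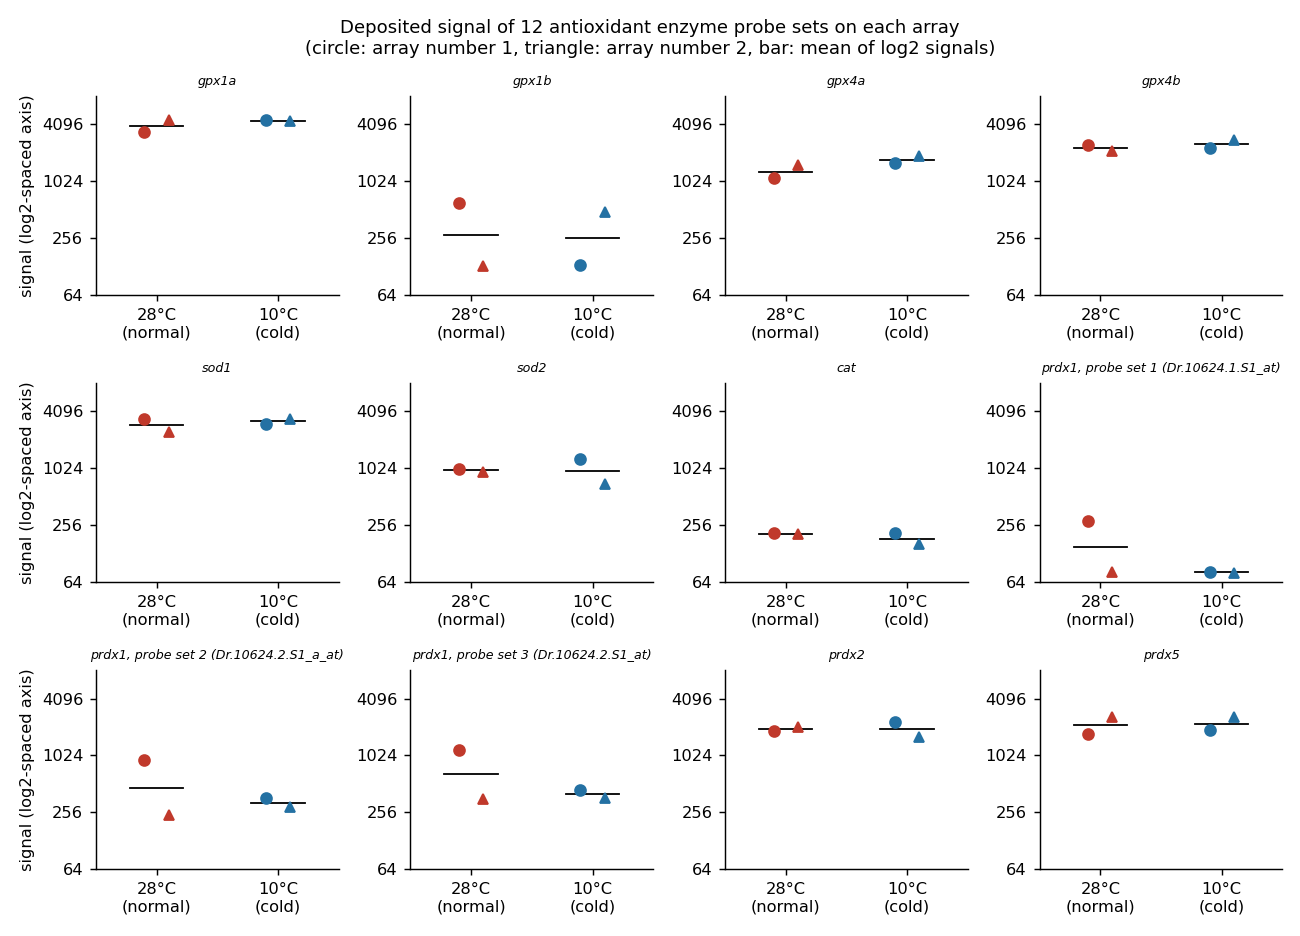
Deposited signal (vertical axis, log2-spaced) of the 12 antioxidant probe sets on the normal arrays (28°C, red) and the cold arrays (10°C, blue); circles are arrays of number 1, triangles arrays of number 2, and each bar is the mean of the log2 signals of 2 arrays. gpx1b was high on normal 1 and cold 2 (594 and 483), prdx1 on normal 1 alone (284, 909 and 1168), and both cold arrays lay above both normal arrays only for gpx4a.

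Among the glutathione peroxidases, gpx1b had the widest spread and its paralogue gpx1a a narrow one. The enzyme GPX1 of vertebrates is a selenoprotein that reduces hydrogen peroxide in the cytosol and in mitochondria. The signal of gpx1b was 594 on normal 1, 129 on normal 2, 134 on cold 1 and 483 on cold 2. The arrays normal 1 and cold 2 were thus high, and the arrays normal 2 and cold 1 were low and within 1.04-fold of each other. Cold over normal was 0.225-fold for the arrays of number 1 and 3.75-fold for those of number 2. The mean log2 signal was 8.11 ± 1.56 in normal and 7.99 ± 1.31 in cold brains (SD, n = 2 arrays each). This gave a log2 fold change of -0.12 (standard error 0.87, 95% interval -2.19 to 1.95), far inside the gap between same-label arrays. Its sign depended on which array was left out: the log2 fold change was 0.98 without normal 1 and 0.80 without cold 1, but -1.22 without normal 2 and -1.05 without cold 2.

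The range of gpx1b over the 4 arrays was 4.61-fold, at the 98.1th percentile of the ranges of all 9301 probe sets. In 78 of the 9301 (0.839%), normal 1 and cold 2 were both at least 2-fold above cold 1 and normal 2, and gpx1b was the 1 antioxidant probe set among them. The reverse order, with cold 1 and normal 2 both at least 2-fold above the other arrays, was found at 159 probe sets (1.71%) and at 0 of the 12.

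The gpx1a signal was 3360.5 on normal 1, 4547 on normal 2, 4499 on cold 1 and 4371 on cold 2. Normal 1 was the low array, and the other 3 lay within 1.04-fold of each other, so the cold arrays fell between the normal ones. Its log2 fold change was 0.18 (standard error 0.24, 95% interval -0.39 to 0.76). The difference in pattern between gpx1a and gpx1b was not tested.

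The gpx4 genes encode the phospholipid hydroperoxide glutathione peroxidases, which reduce lipid peroxides within membranes and in mammals guard cells against ferroptosis. For gpx4a the signal was 1096 on normal 1, 1521 on normal 2, 1587 on cold 1 and 1883 on cold 2. Both cold arrays exceeded both normal arrays, although cold 1 did so over normal 2 by only 1.04-fold. It was the 1 probe set of 12 whose groups did not overlap with cold higher, beside 9.2% of all probe sets, and 0 of the 12 had both cold arrays below both normal arrays, beside 6.45%. The log2 fold change of gpx4a was 0.42 (standard error 0.36, 95% interval -0.43 to 1.27). It lay between 0.19 and 0.66 when each array in turn was left out. As the groups did not overlap, no such fit could turn its sign. Every such fit kept normal 1 or cold 1 under its label.

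For gpx4b the signal was 2479 on normal 1, 2117 on normal 2, 2309.9 on cold 1 and 2788 on cold 2. The groups overlapped, as cold 1 lay between the normal arrays, and the whole range over the arrays was 1.32-fold. Its log2 fold change of 0.15 (standard error 0.29, 95% interval -0.54 to 0.84) was smaller than the gap between same-label arrays, and it lay between 0.012 and 0.28 when each array in turn was left out.

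The superoxide dismutase genes had ranges of 1.36-fold (sod1) and 1.83-fold (sod2). The gene sod1 encodes the cytosolic enzyme with copper and zinc in its active site. Its signal was 3396 on normal 1, 2493 on normal 2, 3034 on cold 1 and 3383 on cold 2, so that normal 2 was the low array and normal 1 and cold 2 were within 1.004-fold of each other. The log2 fold change of sod1 was 0.14 (standard error 0.28, 95% interval -0.52 to 0.80). The gene sod2 encodes the manganese enzyme of the mitochondrial matrix, and its signal was 1005 on normal 1, 936 on normal 2, 1291 on cold 1 and 704 on cold 2. Here the cold arrays held both the highest and the lowest value, 1.83-fold apart, with the normal arrays between them. The log2 fold change of sod2 was -0.03 (standard error 0.44, 95% interval -1.07 to 1.02).

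Catalase, the heme enzyme of peroxisomes, had the narrowest range of the 12 probe sets over the arrays (1.31-fold). The cat signal was 211 on normal 1, 207 on normal 2, 212 on cold 1 and 162 on cold 2. Only cold 2 stood below the others, and cold 1 was level with both normal arrays. The log2 fold change was -0.18 (standard error 0.35, 95% interval -1.02 to 0.66).

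All 3 probe sets of prdx1 were highest on normal 1. PRDX1 is a cytosolic peroxiredoxin that in mammals is induced by oxidative stress. Its probe sets are numbered here in the order of their identifiers. Probe set 1 had a signal of 284 on normal 1, 81.1 on normal 2, 83.0 on cold 1 and 80.7 on cold 2. Probe set 2 had 909 on normal 1, 241 on normal 2, 362 on cold 1 and 289.5 on cold 2. Probe set 3 had 1168 on normal 1, 358 on normal 2, 445 on cold 1 and 362 on cold 2. In each, normal 1 was at least 2-fold above each of the other 3 arrays, which holds for 102 of all 9301 probe sets (1.1%). The annotation gives probe sets 2 and 3 the same transcript accession and all 3 the same gene, so they are not independent measurements.

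Normal 1 exceeded normal 2 by 3.50-fold, 3.77-fold and 3.27-fold at the 3 probe sets, in the same order. The arrays other than normal 1 were within 1.03-fold of each other at probe set 1. Their signals there (80.7 to 83.0) lay below the median signal of each array (95.9 to 102), where little difference can show. In contrast, cold 1 was 1.503-fold over normal 2 at probe set 2 and 1.24-fold at probe set 3. The log2 fold changes, cold minus normal, were -0.89 (standard error 0.57), -0.53 (standard error 0.66) and -0.69 (standard error 0.61). They rest on a single normal array: without normal 1 they were 0.01, 0.43 and 0.17. The 95% intervals of the full comparison, from -2.24 to 0.46, -2.10 to 1.04 and -2.15 to 0.78, all held 0.

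The peroxiredoxin genes prdx2 and prdx5 each had a range near 1.5-fold. PRDX2 is a cytosolic peroxiredoxin that is abundant in neurons and in mammalian red blood cells. The prdx2 signal was 1867 on normal 1, 2045 on normal 2, 2330.0 on cold 1 and 1608 on cold 2. As with sod2, the cold arrays were the highest and the lowest, 1.45-fold apart, and the log2 fold change was -0.01 (standard error 0.33, 95% interval -0.81 to 0.78). The summed signal of red blood cell genes was also lowest on cold 2, as were those of oligodendrocyte and photoreceptor genes. Of the 8 photoreceptor and pineal genes on the array, 6 were below the filter, so their sum is mostly of low signals. The 10 red blood cell genes found on the array, 9 of which passed the filter, summed to 15331 and 23642 on normal 1 and 2. On cold 1 and 2 they summed to 22054 and 13729. Most of the sum was the hemoglobin gene hbaa1, with 12037 and 15571 on the normal arrays and 15330 and 10831 on the cold arrays. Of the 9 genes, 6 were lowest on cold 2, whereas alas2 and nt5c2l1 were lowest on normal 1, and urod was lowest on cold 1 and highest on cold 2. No marker was at 0, and the hemoglobin gene hbba2 had 1253, 3930.0, 2867 and 784 on the same arrays. The 5 oligodendrocyte and myelin genes summed to 10683 and 12135 on normal 1 and 2 and 13370 and 9999 on cold 1 and 2. That is the order of arrays of prdx2. Most of this sum was the gene mbpa, with 8852 and 9454 on the normal arrays and 10605 and 8020 on the cold arrays. Like mbpa, mbpb was lowest on cold 2, but cldnk, olig2 and sox10 were lowest on normal 1. The sums of neuron, radial glia, vessel and muscle genes were lowest on normal 1, and that of leukocyte genes on cold 1. Fewer cells of a type and less RNA per cell cannot be told apart in these pools. The part of any cell type in the prdx2 signal was not tested.

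PRDX5 is found in mitochondria, peroxisomes and the cytosol of mammalian cells. The prdx5 signal was 1735 on normal 1, 2614 on normal 2, 1885 on cold 1 and 2581 on cold 2. Arrays of number 2 were both higher than arrays of number 1 in normal (0.664-fold, normal 1 over normal 2) and in cold (0.730-fold, cold 1 over cold 2), and within a number cold and normal were 1.09-fold and 0.987-fold apart. What the number stands for is not given in the labels. The log2 fold change was 0.05 (standard error 0.35, 95% interval -0.78 to 0.89).

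**Figure D2:**
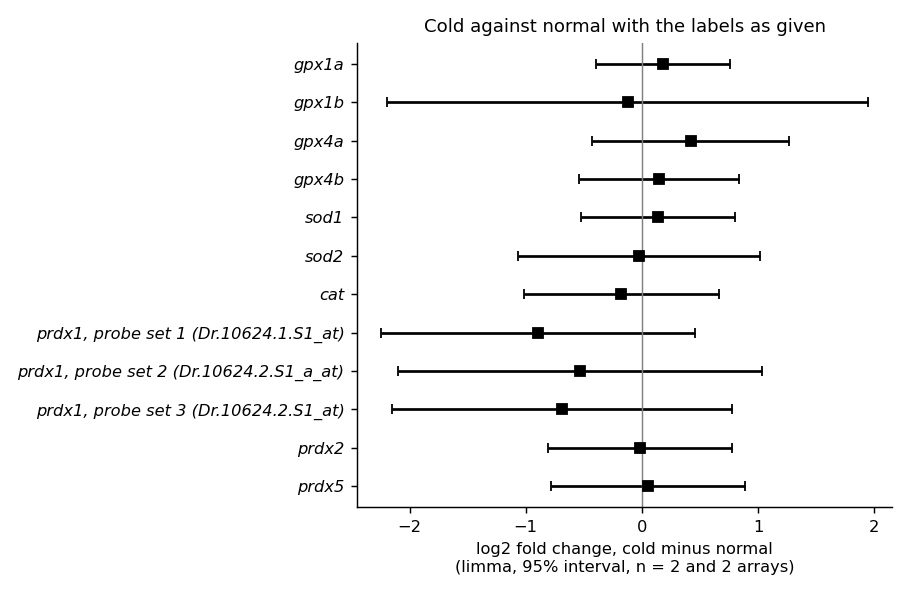
Log2 fold change, cold minus normal (horizontal axis), of the 12 antioxidant probe sets from limma with the labels as given; squares are estimates from 2 arrays per condition and bars are 95% intervals. Every interval holds 0, with estimates from -0.89 (prdx1) to 0.42 (gpx4a), and the widest interval is that of gpx1b.

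The direction of cold over normal differed between the array numbers for most of the enzymes, as it did for most of all probe sets. Within the arrays of number 1, 4 of the 12 probe sets had a cold 1 signal at most 0.5 times that of normal 1, beside 5.13% of all. These were gpx1b and the 3 of prdx1. As those of prdx1 are not independent, the count by gene was 2 of 10. A cold 1 signal 2-fold or more above that of normal 1 was found at 0 of the 12, beside 8.79%. Within the arrays of number 2, 1 of the 12 (gpx1b) had a cold 2 signal 2-fold or more above that of normal 2, beside 2.23%, and 0 were lower by as much, beside 4.0%. The 2 numbers gave opposite signs at 10 of the 12 probe sets, beside 69.6% of all. Some of these signs rest on ratios near 1. Cold over normal was 1.005-fold for cat in number 1. In number 2 it was 1.01-fold for probe set 3 of prdx1 and 0.987-fold for prdx5. Of the probe sets with the same sign in both numbers, gpx4a was higher on the cold array in both (1.45-fold and 1.24-fold). Probe set 1 of prdx1 was lower in number 1 (0.293-fold) and nearly level in number 2 (0.994-fold). Each ratio is of 1 array to 1 array, with no replicate. The array normal 1 is in every difference of at least 2-fold of prdx1.

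**Figure D3:**
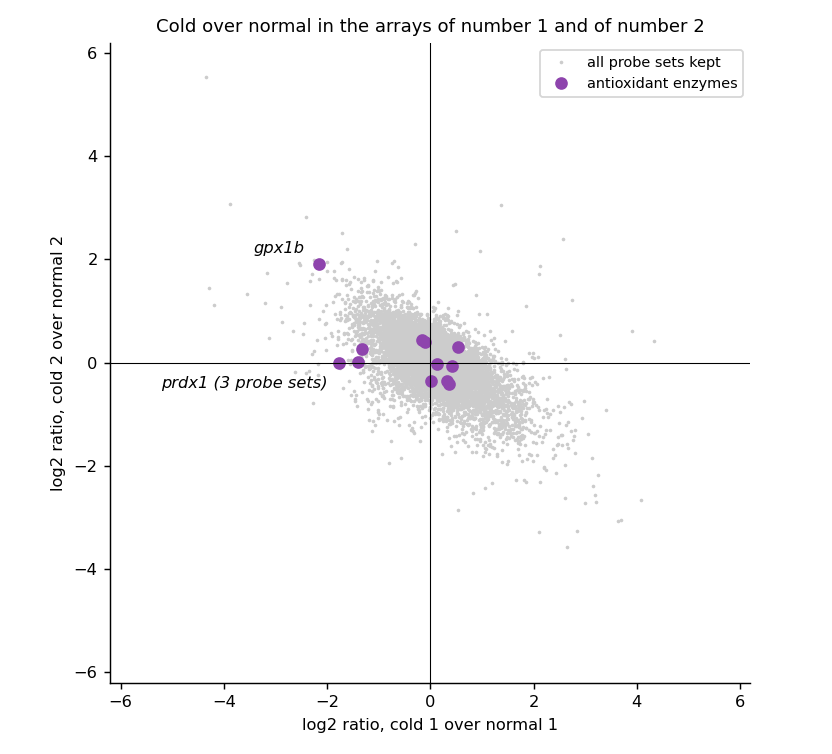
Log2 ratio of cold over normal for the arrays of number 1 (horizontal axis) and number 2 (vertical axis); grey points are the 9301 probe sets tested and purple points the 12 antioxidant probe sets. gpx1b lies in the upper left (0.225-fold and 3.75-fold), the 3 prdx1 probe sets lie left of 0 near the horizontal line, and the other 8 lie between -0.16 and 0.53 on the horizontal axis.

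The probe sets nearest to gpx1b and prdx1 in pattern were found by the root mean square difference of log2 signals, each centred on its mean over the 4 arrays. With 4 arrays many probe sets come close by such a measure, so the names are a description. Nearest to gpx1b were slc35e1 (root mean square difference 0.11), dazap2 (0.14), prpf31 (0.15), znf395a (0.15) and npm1a (0.16). The splicing factor gene prpf31, for example, had 955 on normal 1, 167 on normal 2, 166 on cold 1 and 619.7 on cold 2, the same high and low arrays as gpx1b. Nearest to probe set 2 of prdx1, its probe set with the widest range, were dlgap4a (0.05), celf2 (0.07), med10 (0.08), psme1 (0.08) and chmp2bb (0.08). The gene psme1, which encodes a subunit of a proteasome activator, had 518 on normal 1, 149 on normal 2, 221 on cold 1 and 194 on cold 2.

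**Figure D4:**
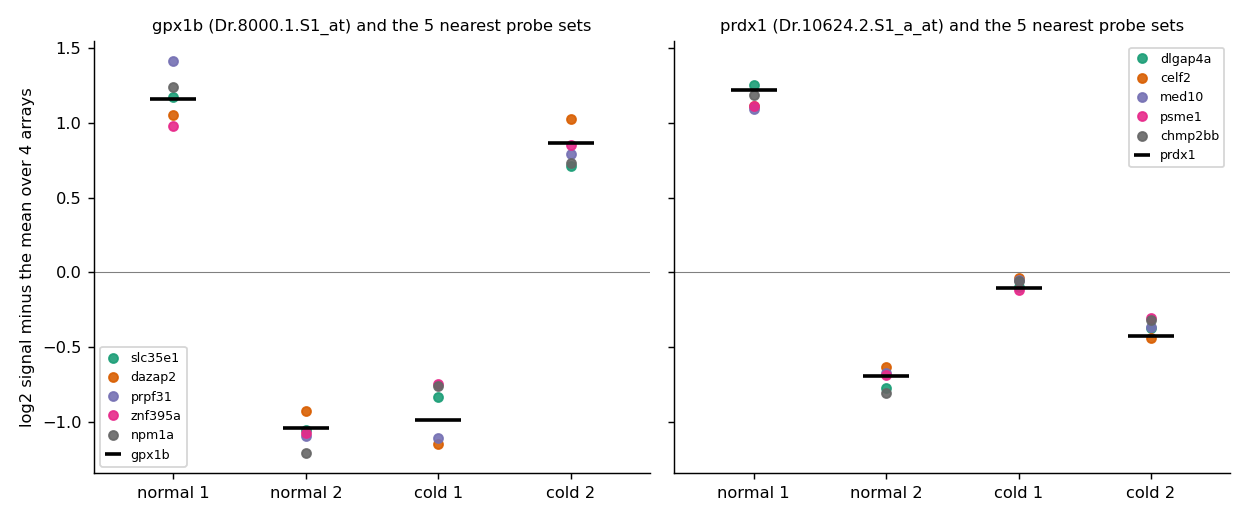
Log2 signal minus its mean over the 4 arrays (vertical axis) on each array, for gpx1b (left) and probe set 2 of prdx1 (right), drawn as black bars, and for the 5 nearest probe sets of each, drawn as coloured points. On the left normal 1 and cold 2 are above the mean, and on the right normal 1 alone is.

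Other antioxidant genes, such as further peroxiredoxins and glutathione transferases, and genes that supply, recycle or regulate the enzymes were followed in 7 lists. Of 56 genes found on the array, 46 passed the filter, and at an adjusted p under 0.05 limma called 0 of the 46 in either direction, beside 0.0% of all probe sets in each direction. Their median log2 fold change was 0.01, beside 0.04 over all. Both cold arrays were above both normal arrays for 1 gene and below them for 3, beside 9.2% and 6.45% of all probe sets.

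Of the other peroxiredoxins, prdx3 of mitochondria had 792 on normal 1, 1002 on normal 2, 1076 on cold 1 and 933 on cold 2, with a log2 fold change of 0.17 (standard error 0.38). The endoplasmic reticulum enzyme gene prdx4 had 563, 459, 656 and 533 on the same arrays, with cold over normal at 1.16-fold in both numbers and the groups overlapping. One more gene of that list, gpx8, did not pass the filter.

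The genes of glutathione synthesis and recycling included 9 that passed. The single gene with both cold arrays above both normal arrays was idh2, the mitochondrial isocitrate dehydrogenase that supplies NADPH, with 3342 on normal 1, 3435 on normal 2, 4275 on cold 1 and 4337 on cold 2 (log2 fold change 0.35, standard error 0.22). The catalytic subunit gene of glutathione synthesis, gclc, picked after its values were seen, lay the other way at 504, 425, 364 and 406 on these arrays. Within number 2, cold over normal was 1.26-fold for idh2 and 0.957-fold for gclc. The widest range was that of the glutaredoxin gene glrx3, which was high on cold 1 and normal 2 (880 and 793) and low on normal 1 and cold 2 (252 and 333), the reverse of gpx1b. The glutaredoxin gene glrx followed the array number instead, with 1062 and 1025 on normal 1 and cold 1 and 523 and 600.2 on normal 2 and cold 2. Glutathione reductase, gsr, had 258 on normal 1, 144 on normal 2, 162 on cold 1 and 177 on cold 2.

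Among 8 glutathione transferase genes, which join glutathione to reactive compounds, 2 were 2-fold or more above normal 1 on cold 1, and 2 were below normal 2 by as much on cold 2, beside 8.79% and 4.0% of all probe sets. The gene gsto1 had 66.3 on normal 1, 259 on normal 2, 271 on cold 1 and 101 on cold 2. On normal 1 it lay below the median signal of each array (95.9 to 102), so its ratio in number 1 rests on a low signal. For gstm.1 the signals were 1008, 1609, 1928 and 635 on these arrays. Both were thus high on normal 2 and cold 1. The microsomal gene mgst3a had 279, 371, 585 and 236, and gstp1.2 had 3652, 1589, 2407 and 1769.8, the latter highest on normal 1 as prdx1 was.

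The thioredoxin system, which recycles peroxiredoxins, held the widest range of all these lists. The thioredoxin gene txnb had 1326 on normal 1, 286 on normal 2, 496 on cold 1 and 160.3 on cold 2, an 8.27-fold range. It was highest on normal 1, as prdx1 was, and cold was below normal in both numbers (0.374-fold and 0.560-fold), but cold 1 exceeded normal 2, so the groups overlapped. Its log2 fold change was -1.13 (standard error 0.85, 95% interval -3.15 to 0.89). The gene park7, whose human orthologue guards against oxidative stress, had 419, 1102, 1413 and 449.8 on normal 1, normal 2, cold 1 and cold 2. The thioredoxin inhibitor gene txnipa had 325, 444, 749 and 287, and the reductase gene txnrd3 had 1023, 949.8, 686 and 1041.

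Nrf2, encoded by nfe2l2a, is the transcription factor that induces many antioxidant genes once the repressor Keap1 releases it. Both cold arrays were below both normal arrays for nfe2l2a, with 177 on normal 1, 156 on normal 2, 123 on cold 1 and 99.7 on cold 2. The limma estimate was -0.59 on the log2 scale, with a standard error of 0.31 and an adjusted p of 1.0. The gene was picked for this after its values were seen, as was trnau1apa. Within number 2, cold over normal was 0.637-fold for nfe2l2a and 0.813-fold for trnau1apa. The cold 2 signal of nfe2l2a was near the median signal of that array (98.7). The repressor gene keap1a, also picked after its values were seen, had 259 on normal 1, 127 on normal 2, 98.9 on cold 1 and 211 on cold 2. There the groups overlapped, and cold over normal was 0.382-fold in number 1 and 1.66-fold in number 2. Of 20 genes listed for Nrf2, Keap1 and their targets, 6 were found on the array by symbol and 5 passed the filter. The targets not found included hmox1a and hmox1b. Of those found, sqstm1, an autophagy receptor gene, had 1268, 331, 233 and 563 on normal 1, normal 2, cold 1 and cold 2. The quinone reductase gene nqo1 had 61.6, 162, 220 and 92.0, in the reverse order of arrays. The nqo1 signals on normal 1 and cold 2 lay below the median signal of each array (95.9 to 102), so its ratios rest on low signals. The biliverdin reductase gene blvrb had 376, 424, 591 and 211.

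Glutathione peroxidases of the GPX1 and GPX4 type carry selenocysteine, and 11 genes of selenoproteins and of its insertion passed the filter. The selenophosphate synthetase paralogue gene sephs1 had 153 on normal 1, 333 on normal 2, 401 on cold 1 and 154 on cold 2, again with normal 2 and cold 1 high. The selenium carrier gene selenop varied less, at 2102, 1809, 2129.5 and 1568 on these arrays, as did selenow2a at 597, 920.1, 1044 and 702. For the tRNA-associated protein genes, trnau1apb had 322, 207, 352 and 167, and trnau1apa had 170 and 179 on the normal against 121 and 145 on the cold arrays. Among 3 metal carrier genes, the ferritin gene fth1a had the narrowest range of the 46 genes at 11907, 11216, 10494 and 11501, the ferritin gene fthl27 had 8328, 4332, 3219 and 6389, and the iron exporter gene slc40a1 had 194, 242, 234 and 268.

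**Figure D5:**
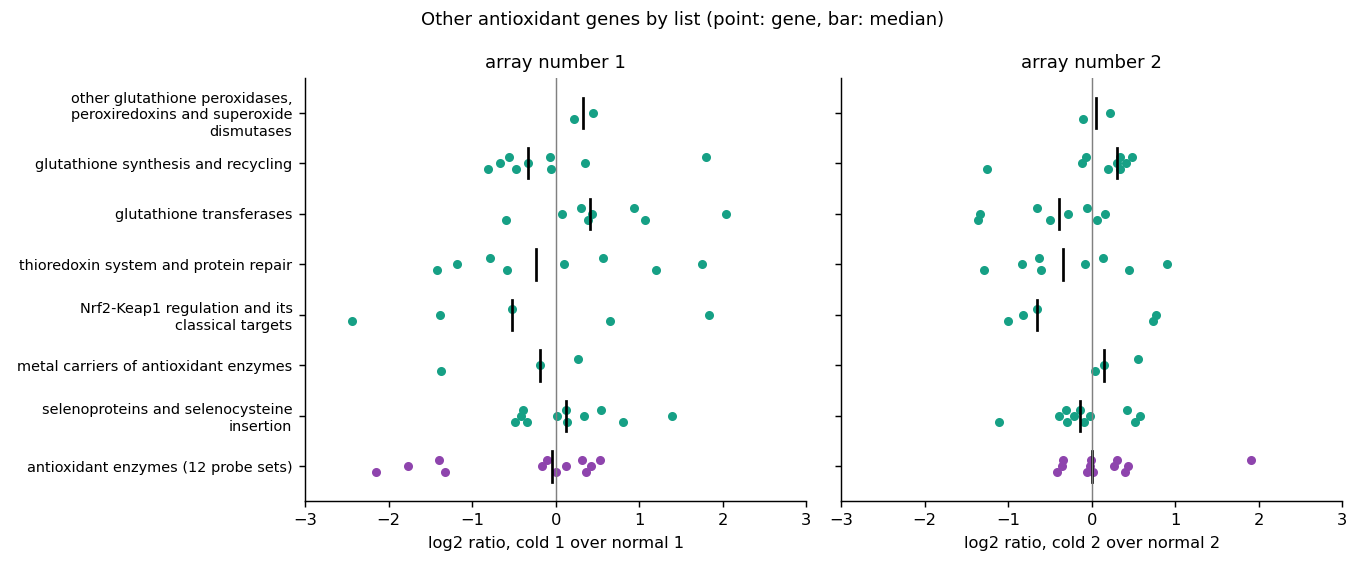
Log2 ratio of cold over normal (horizontal axes) for the arrays of number 1 (left) and number 2 (right); green points are the 46 genes of 7 antioxidant lists, purple points the 12 antioxidant enzyme probe sets, and black bars medians. The medians of the enzymes are -0.05 and 0.00, and every list with over 3 genes has points on both sides of 0 in both numbers.

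Most skeletal muscle genes were highest on cold 1, on which sod2 and prdx2 had their highest signals. The cat signal was highest there too, but level with normal 1 (212 against 211). Over 10 muscle marker genes found, 9 of which passed the filter, the summed signal was 1488 on normal 1, 1544 on normal 2, 5548 on cold 1 and 1599.6 on cold 2, with no marker at 0. The parvalbumin gene pvalb2 had 1527 on cold 1 against 76.1 to 108 on the other arrays. On cold 1, 6 of the 9 genes exceeded each other array by 2-fold or more and ckmb was highest there by less, while acta1a and tnni2a.4 were lowest on cold 1. The summed signals of neuron, oligodendrocyte, radial glia and vessel genes were also highest on cold 1, but by far smaller margins than that of muscle. For radial glia the sum was 21631.5 on cold 1 against 21449.9 on normal 2, and for vessels 593 against 546. For neurons the sum was 26907 on cold 1 against 25756 on normal 2. The sums of blood and photoreceptor genes were highest on normal 2, and that of leukocyte genes on cold 2. The part of muscle RNA in the antioxidant signals of cold 1 was not tested.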

How the data were processed

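Gene expression was measured on 4 arrays, 2 per condition, grouped by the labels. Per the study's methods, chips were read on an Affymetrix scanner and processed with the maker's operating software. The submitters' processing notes name MAS5 with no version. The authors deposited 1 linear intensity for each of 15617 probe sets. The scaling target, detection calls and filters are not known from those sources. If the scaling was global, a uniform shift of the whole transcriptome would be hidden.

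The deposited intensity was taken to log2 with no further scaling. After 115 control probe sets had been removed, those at or above the 40th percentile of the mean over 4 arrays were kept. The comparison was an unpaired limma fit (version 3.58.1, R 4.3.3; lmFit and eBayes with a variance trend), with Benjamini-Hochberg adjustment over all 9301 probe sets and a threshold of 0.05. The study used the SAM program, which was not run here. The fit was tried on simulated data with independent noise and changes of known size. Those data do not hold the unlikeness of same-label arrays seen here, so they do not bear on it. Symbols came from the platform annotation (10795 probe sets with 1 symbol, 135 with several, 4572 with none). Of the 10795, 10711 were matched to a current symbol of assembly GRCz12tu, used for names only.

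The enzymes, lists and tests were chosen with earlier results of these data known. All enzyme probe sets are named. In other lists each gene is taken at its brightest tested probe set, and the 3 genes of widest range and the 1 of highest mean are named. One gene of the metal carrier list, ftr82, was dropped as misplaced. The fit was repeated with quantile normalization, with median centring, with 16 added to each signal before log2, unfiltered, with the filter moved to the 60th percentile, without a variance trend, with the replicate number as a block, and without each array in turn.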

Additional observations from a re-analysis of the deposited data

Results flagged for a closer look

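For 10 antioxidant probe sets, cold lay above normal on the arrays of 1 number and below it on those of the other, with 1 array per condition and number. The difference was not tested, and 69.6% of all probe sets tested share this property. The log2 ratio of cold over normal in number 2 minus that in number 1 was 4.06 for gpx1b, and at prdx1 it was 1.59 for probe set 2 and 1.41 for probe set 3. It was 0.60 for sod1 and 0.50 for gpx4b. Values below 0 were found for sod2 (-0.77), prdx2 (-0.67), gpx1a (-0.48), cat (-0.37) and prdx5 (-0.14).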

How the results depend on the processing

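Under the 8 alternatives that use all 4 arrays, the 12 enzyme probe sets gave 95 log2 fold changes. The filter at the 60th percentile dropped probe set 1 of prdx1, whose signal was low. All 95 kept the sign of the values reported and none passed the threshold. Moving or dropping the filter, dropping the variance trend or adding a block cannot alter a log2 fold change in this balanced design. The signs kept under those fits were therefore fixed in advance. Among the 8, only quantile normalization, median centring and the constant added before log2 could have turned a sign. Leaving out 1 array at a time turned the sign of 10 of the 12, all but gpx4a (0.19 to 0.66) and gpx4b (0.012 to 0.28). For gpx4a no such fit could turn it, as both cold arrays exceeded both normal arrays. Each of these fits keeps normal 1 or cold 1 under its label, so they cannot decide whether those labels were exchanged. The log2 fold change ranged from -1.22 to 0.98 for gpx1b, and at prdx1 from -1.79 to 0.012 (probe set 1), -1.49 to 0.43 (probe set 2) and -1.54 to 0.17 (probe set 3). It ranged from -0.46 to 0.41 for sod2, -0.084 to 0.36 for sod1, -0.37 to 0.021 for cat, -0.28 to 0.25 for prdx2, -0.25 to 0.35 for prdx5 and -0.036 to 0.40 for gpx1a. The smallest adjusted p of an enzyme under any alternative was 0.998 from limma.

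Over all genes, 0 probe sets were called under each alternative except the crossed pairing described here, beside 18 higher and 28 lower at an unadjusted p under 0.05 in the comparison reported. With the replicate number as a block it was 0, with 18 higher and 21 lower at an unadjusted p under 0.05. The labels tie same-numbered arrays by the number alone, and whether it marks an acclimation experiment is not known. Across the 9301 probe sets, their deviations from the group means correlated at -0.30. A crossed pairing as a block, chosen after seeing the data, called 1 probe set (krt97). The counts of enzyme probe sets at least 2-fold apart within a number stayed the same under quantile normalization, median centring and log2 of the signal plus 16. Depth is not defined for arrays, and 2 arrays per condition limit all values.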
